A study of Mus musculus with 18 samples.

Results

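The nuclear-encoded genes of oxidative phosphorylation were followed across 3 groups of cells sorted from mouse cortex and labelled by layer. Members were the rows of the gene count table whose symbol begins with Nduf, Uqcr, Cox4 to Cox8 or Atp5, or is Sdha, Sdhb, Sdhc or Sdhd, and they numbered 92 of 24015 genes. The rule reads symbols and no measured value, though it was chosen with earlier results of these data known. By textbook role they were 36 subunits of complex I, 7 complex I assembly factors, the 4 subunits of complex II, 8 genes of complex III, 20 of complex IV, 15 of complex V, and 2 genes, Atp5s and Atp5sl, whose names begin with Atp5 but which encode no subunit of the synthase. Ndufa4 and Ndufa4l2 carry complex I names but were placed with complex IV, where their proteins belong.

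The study asked how Tbr1, a transcription factor of layer 6 neurons, shapes the neonatal cortex. RNA was sequenced from 4 libraries in each of 3 groups, all from tdTomato-positive cells sorted from dissociated cortex at postnatal day 5, about 25000 cells a library. WT layer 6 came from wild-type mice, Tbr1 null layer 6 from mice that the series describes as constitutive Tbr1 nulls, and WT layer 5 from wild-type mice. The labels do not name the strain or the promoter that drives tdTomato in the sorted cells, nor say whether libraries are separate animals, so p-values measure the spread between these libraries, which may in part be technical.

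Oxidative phosphorylation makes most of a neuron's ATP. Complex I (NADH dehydrogenase) and complex II (succinate dehydrogenase, also an enzyme of the citric acid cycle) pass electrons through ubiquinone to complex III (cytochrome bc1), cytochrome c and complex IV (cytochrome c oxidase), and complexes I, III and IV pump the protons that drive complex V, the ATP synthase. In complex I the core subunits carry the redox centres or catalysis, while supernumerary subunits stabilise the complexes. The core proteins of complex III were kept apart here from its catalytic subunit. Complex II is wholly nuclear-encoded, whereas the other complexes also hold subunits made from mitochondrial DNA, and none of those mitochondrial genes was a member. Several complex IV subunits exist as tissue isoforms, such as the muscle forms Cox6a2, Cox7a1 and Cox8b.

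Library totals ran from 32982957 to 54899002 counts in WT layer 6, 41091165 to 47540669 in Tbr1 null layer 6 and 27465597 to 39703820 in WT layer 5. Tbr1 itself stood at 170, 172, 183 and 183 CPM (counts of the gene scaled to a common library size) in WT layer 6 and at 92.4, 98.2, 95.1 and 96.1 CPM in the null libraries, so its RNA was lower in 4 of 4 null libraries but not absent. Within each layer 6 group, libraries 1 and 2 resembled each other, as did 3 and 4. The marker lists went against a plain reading of the layer 5 label: of 6 layer 5 markers, 5 were lower and 1 higher in WT layer 5 than in WT layer 6, with summed levels of 268 to 273 against 524 to 548 CPM. Of 6 layer 6 markers, 5 were also lower there and 1 higher, summed at 250.2 to 267 against 541 to 598 CPM, and Tbr1 stood at 44.9, 39.7, 42.5 and 40.6 CPM in WT layer 5. All 9 astrocyte markers were higher there (summed 4985 to 5021 CPM, against 818 to 948 CPM in WT layer 6 and 1002 to 1071 CPM in the null), as were 9 of 9 oligodendrocyte, 8 of 8 microglial and 8 of 8 endothelial markers, and no marker of these lists was at 0 in every library. Of 5 excitatory neuron markers, 4 were lower and 1 higher. Interneuron markers were lower for 7 of 8, and pan-neuronal markers lower for 4 and higher for 2 of 7. By the test given below, 42.2% of all genes tested were called higher in WT layer 5 than in WT layer 6 and 43.4% lower. All layer 6 libraries were sequenced in one batch and the layer 5 libraries in a pair of others, so layer and sequencing batch cannot be told apart. In sorted bulk RNA, fewer cells of a type and less RNA per cell also cannot be told apart.

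Summed over all 92 members, the level was 8335 to 8572 CPM in WT layer 6, 8423 to 8929 CPM in Tbr1 null layer 6 and 12126 to 12385 CPM in WT layer 5. The library size behind CPM was scaled once over all 12 libraries, and levels are compared between groups and not between genes. The layer 6 groups overlapped, and WT layer 5 stood above both, at 1.44 times the WT layer 6 mean. Complex IV had the largest ratio of the summed levels, from 1599 ± 37.3 (SD, n = 4) in WT layer 6 to 2912 ± 18.6 CPM in WT layer 5, or 1.82 times. The ratio was 1.43 for complex I subunits (2083 ± 16.4 against 2987 ± 45.3 CPM), 1.39 for complex III (789 ± 12.7 against 1098 ± 9.24 CPM), 1.32 for complex V (3397 ± 48.8 against 4488 ± 40.1 CPM) and 1.29 for complex II (459 ± 8.95 against 592 ± 9.52 CPM). The 7 complex I assembly factors were summed at a lower level there, from 140 ± 1.47 to 131 ± 4.62 CPM, a ratio of 0.933. In the null the complexes stood at 1.01 to 1.03 times WT layer 6.

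**Figure D1:**
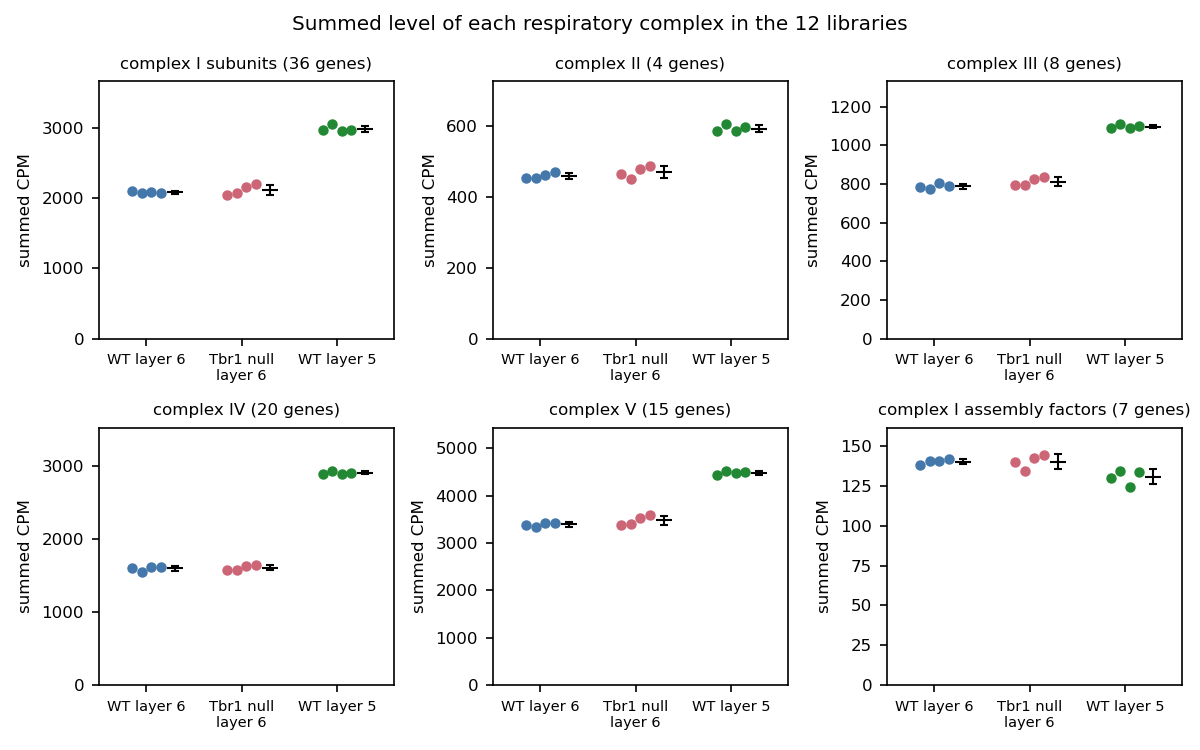
Summed CPM of each respiratory complex (y axis, from 0) in each of the 12 libraries by group (x axis). Points are libraries and the bar is the mean with its SD (n = 4). The layer 6 groups overlap in all 6 panels, and WT layer 5 stands above them for complexes I to V and below WT layer 6 for the complex I assembly factors.

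**Figure D2:**
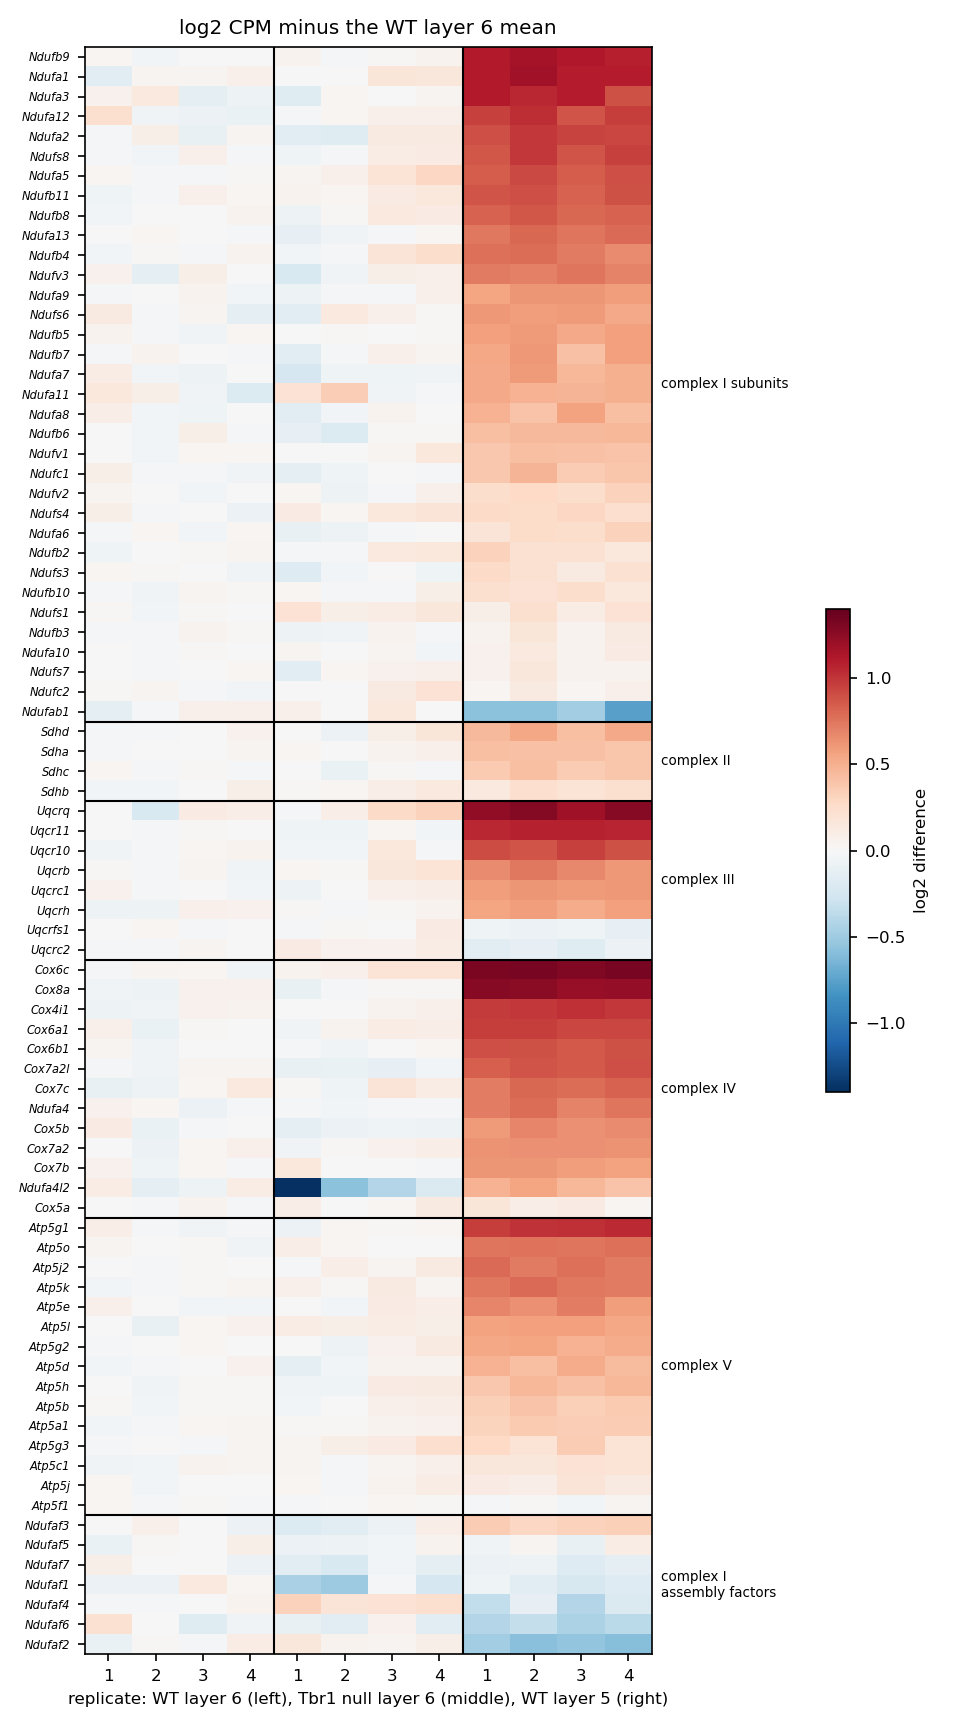
Difference in log2 CPM from the WT layer 6 mean (colour, red higher and blue lower) for 81 members of complexes I to V and the complex I assembly factors, all with at least 1 CPM in every library (rows, grouped by complex), in the 12 libraries (columns). The WT layer 5 columns are red in most rows of every complex, with blue rows among the assembly factors and for Ndufab1, Uqcrc2 and Uqcrfs1, while most rows of the null columns are pale and Ndufa4l2 is the darkest.

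The first comparison asked what loss of Tbr1 did to these genes in layer 6. Of 92 members, 88 passed the filter on low counts, which left out Cox6a2, Cox7b2, Cox8b and Cox8c. Ndufaf4 and Ndufs1 rose, and 0 members fell, by edgeR's quasi-likelihood test with Benjamini-Hochberg adjustment over all genes. Among all 14588 genes tested, 7.31% were called higher and 6.86% lower, so the 2 called members are below the background share. At an unadjusted p under 0.05, 8 members were higher and 5 lower, and DESeq2 called 5 higher and 2 lower. The shares over all genes under these other rules were not counted, so these counts have no background beside them. Fold changes were positive for 57 of 88 members, with a median log2 fold change of 0.028 against 0.00034 over all genes. That median was 0.0047 without null library 4 and 0.015 without null library 3 or without WT layer 6 library 2.

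Ndufaf4, an assembly factor of complex I, stood at 32.0, 31.7, 32.5 and 33.4 CPM in WT layer 6 and at 40.5, 36.6, 37.2 and 37.8 CPM in the null. Every null library was above every WT library, and the log2 fold change was 0.23 ± 0.045 (SE, adjusted p = 0.00355). Ndufs1, the largest subunit of complex I and the holder of several of its iron-sulphur clusters, stood at 111, 107, 111 and 110 CPM in WT layer 6 and at 126, 116, 118 and 123 CPM in the null. Those groups did not overlap either, and the log2 fold change was 0.14 ± 0.033 (SE, adjusted p = 0.0125). With the libraries of each pair summed, so that 2 stood against 2, neither gene passed (adjusted p = 0.118 for Ndufaf4 and 0.212 for Ndufs1 by edgeR). Ndufs1 also missed the threshold with the pair as a random effect in limma (adjusted p = 0.0786) and with WT layer 6 libraries 3 and 4 alone (adjusted p = 0.0669 by edgeR). Without null library 1 the members called higher numbered 5, with Atp5g3, Cox6c and Ndufa5 added. The members called lower numbered 1 without null library 3 (Ndufaf1) and 1 without null library 4 (Ndufa4l2).

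No other member passed the test. Ndufa4l2, a paralogue of Ndufa4 known as a target of hypoxia signalling, stood at 3.61, 3.06, 3.19 and 3.61 CPM in WT layer 6 and at 1.17, 2.26, 2.53 and 2.91 CPM in the null. All null libraries lay below all WT libraries, library 1 farthest, and the log2 fold change of -0.61 ± 0.22 (SE) had an adjusted p of 0.0895 by edgeR and 0.0419 by DESeq2. Cox6c, a complex IV subunit, had means of 84.8 and 92.8 CPM and a log2 fold change of 0.13 ± 0.041 (SE, adjusted p = 0.0568 by edgeR and 0.0346 by DESeq2). Succinate dehydrogenase was near level, with log2 fold changes of 0.038 for Sdha, 0.067 for Sdhb, -0.022 for Sdhc and 0.046 for Sdhd, none called. The intervals given next come from the fit of 4 libraries against 4, which takes no account of the likeness within library pairs. Among the 81 members with a mean of at least 10 CPM, the 95% interval of the difference lay within 1.25-fold in either direction for 78 and within 1.5-fold for 81. Beside these members, 5 of 9 astrocyte markers were called higher and 1 lower in the null. Of 9 oligodendrocyte markers 2 were higher and 4 lower, of 8 interneuron markers 1 was higher and 3 lower, and of 5 excitatory neuron markers 2 were lower. Of the 8 endothelial markers 1 was lower, and of 8 microglial markers 0 were called by edgeR. Layer markers moved too: all 6 layer 6 markers, Tbr1 among them, were lower, and 4 of 6 layer 5 markers were higher. Among 7 pan-neuronal markers 2 were higher. Over all genes tested, 7.31% were called higher and 6.86% lower. Rn45s, a ribosomal RNA precursor, took 0.592% to 2.67% of counts in the null and 0.384% to 0.723% in WT layer 6. The part of these in the values above was not tested.

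The second comparison set WT layer 5 against WT layer 6. Of 92 members, 89 were tested, all but Cox7b2, Cox8b and Cox8c. Among them 78 were higher in WT layer 5, 6 were lower and 5 were not called. Over all 14927 genes tested, 42.2% were called higher and 43.4% lower. A fold over 1.5 was reached by 42 called members in the higher direction and 0 in the lower one, where the shares over all genes were 27.7% and 22.9%. The median log2 fold change was 0.55 over the members and -0.010 over all genes tested. The groups did not overlap for 81 of the 84 called members, nor for 94.2% of all genes called, and they overlapped for Cox5a, Cox7a1 and Ndufc2. Cox6a2 passed the filter through WT layer 5 alone, so its direction was set by the filter, and without it 77 of 88 members were higher, 41 of them over 1.5-fold, with a median of 0.55. Fold changes come from the scaling of the 2 groups fitted, which differs slightly from that of the CPM levels.

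Sequencing batch and markers of other cells moved with this comparison, as given above, and the part of the cell markers in it was not tested. Rn45s also differed, at 1.21% to 1.25% of counts in WT layer 5 against 0.384% to 0.723% in WT layer 6. With the layer 5 libraries of one batch at a time against all of layer 6, 82 and 79 of the 84 calls were kept. Batch B holds layer 5 libraries 1 and 2 and batch C libraries 3 and 4. The libraries alike in their counts (1 with 3, 2 with 4) cross the batches, so these fits may not be independent. With the pairs of libraries summed, 77 of 84 were kept.

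**Figure D3:**
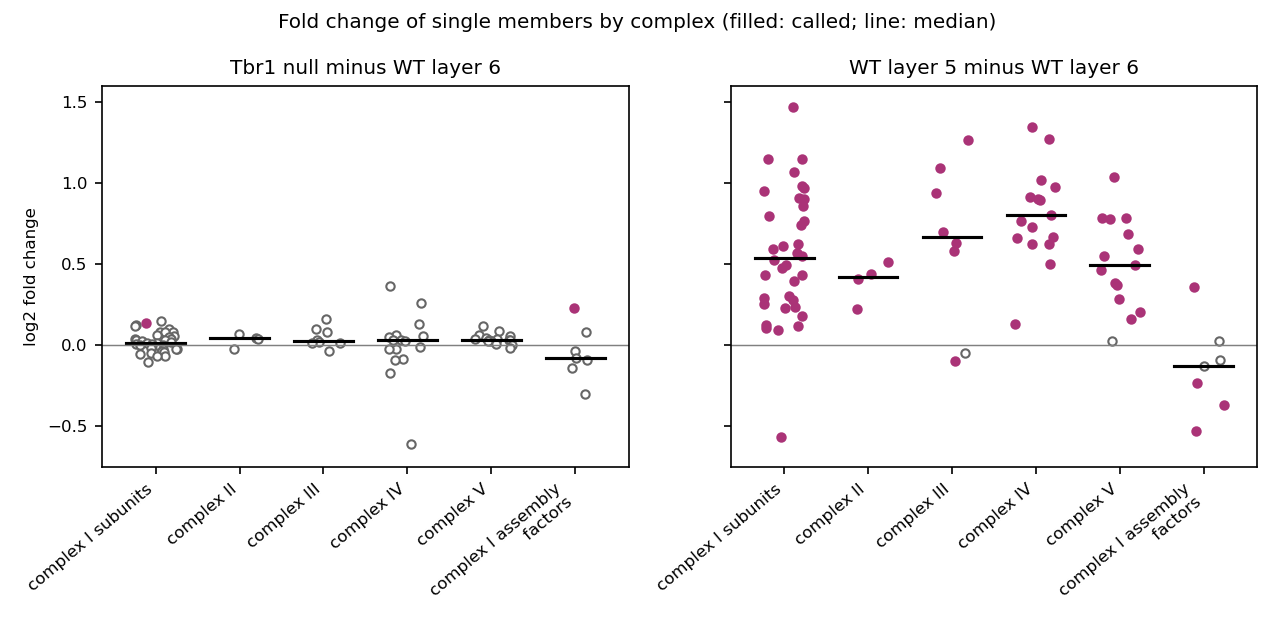
Log2 fold change (y axis) of each tested member by complex (x axis), for Tbr1 null minus WT layer 6 (left) and WT layer 5 minus WT layer 6 (right). Each point is a gene, filled where called at an adjusted p under 0.05, and the line is the median of the complex. Cox6a2 (complex IV, right) lies above the axis but counts in the median. The left panel has 2 filled points, and the right panel is filled and above 0 for most subunits.

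Among complex I subunits, 35 of 36 were higher in WT layer 5 and 1, Ndufab1, was lower, with a median log2 fold change of 0.54. The 7 core subunits were all higher, with a median of 0.30, and 28 of 29 supernumerary subunits were higher, with a median of 0.60. The difference between those medians was not tested. Ndufb9, a supernumerary subunit of the membrane arm, stood at 83.1, 79.8, 81.9 and 82.1 CPM in WT layer 6 and at 176, 184, 177 and 174 CPM in WT layer 5, a log2 fold change of 1.15 ± 0.028 (SE, adjusted p = 2.23e-14). Its layer groups were far apart relative to their spread. Ndufa1, a small membrane-arm subunit, went from 27.8 ± 1.86 to 60.3 ± 1.74 CPM (SD, n = 4), and Ndufa3, another, from 43.3 ± 3.63 to 88.9 ± 5.99 CPM.

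The change of the core subunit named above was smaller. Ndufs1 went from 109.7 ± 1.89 to 122 ± 5.80 CPM (log2 fold change 0.18 ± 0.035, SE). Ndufab1, which also serves as the mitochondrial acyl carrier protein, stood at 24.9, 26.7, 28.5 and 28.5 CPM in WT layer 6 and at 18.2, 18.2, 19.3 and 16.0 CPM in WT layer 5. Its groups did not overlap, and its log2 fold change was -0.57 ± 0.064 (SE, adjusted p = 9.52e-07). Ndufab1 is 1 of 9 members with a named pseudogene in RefSeq, along with Atp5c1, Atp5k, Atp5l, Cox5b, Cox7c, Ndufa12, Ndufs5 and Uqcrh, and reads of these 9 could be split with or lost to the copies. Ndufs5, chosen here after its values were seen, was counted at 0.671 to 1.13 CPM in WT layer 6 and 2.06 to 3.06 CPM in WT layer 5, so its log2 fold change of 1.47 ± 0.20 (SE) is uncertain.

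The assembly factors of complex I, which help build it but are not part of it, did not follow the subunits. Of 7, only Ndufaf3 was higher in WT layer 5, from 21.8 ± 0.943 to 27.3 ± 0.544 CPM (SD, n = 4). Ndufaf2, Ndufaf4 and Ndufaf6 were lower, and Ndufaf1, Ndufaf5 and Ndufaf7 were not called. Over all genes tested, 42.2% were called higher and 43.4% lower, so the share of assembly factors called lower is near that of all genes. Ndufaf2, which acts late in assembly, stood at 14.9, 16.0, 15.6 and 17.0 CPM in WT layer 6 and at 11.3, 10.5, 10.8 and 10.5 CPM in WT layer 5, with a log2 fold change of -0.53 ± 0.063 (SE, adjusted p = 1.88e-06). Ndufaf4, one of the pair that rose in the null, stood at 25.5, 29.9, 24.4 and 28.2 CPM in WT layer 5, below every WT layer 6 library (log2 fold change -0.23 ± 0.059, SE, adjusted p = 0.0019).

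All 4 subunits of complex II were higher in WT layer 5. Sdha, the flavoprotein that oxidises succinate, stood at 168, 171, 172 and 176 CPM in WT layer 6 and at 230, 228, 228 and 225 CPM in WT layer 5, a log2 fold change of 0.44 ± 0.023 (SE). Sdhb, the iron-sulphur subunit, went from 111 ± 4.36 to 127 ± 3.59 CPM (SD, n = 4), with a log2 fold change of 0.22. The membrane anchors Sdhc and Sdhd had log2 fold changes of 0.41 and 0.51. No subunit's layer groups overlapped.

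The complex III genes did not all move the same way, and the core proteins went opposite ways. Cyc1, a complex III gene outside the symbol rule, is given with the other lists below. All 5 small supernumerary subunits were higher in WT layer 5, with a median log2 fold change of 0.94, and so was Uqcrc1, one of its core proteins, chosen here after its values were seen (log2 fold change 0.63). Uqcrc2, the other core protein, was lower, and Uqcrfs1, the Rieske iron-sulphur protein, also chosen after its values were seen, was not called, although its 4 layer 5 libraries lay below the 4 of layer 6, with means of 111 and 105 CPM (log2 fold change -0.051, adjusted p = 0.099). Uqcrq, a small ubiquinone-binding subunit, stood at 26.9, 23.2, 29.1 and 28.5 CPM in WT layer 6 and at 63.6, 65.5, 60.9 and 64.8 CPM in WT layer 5 (log2 fold change 1.27 ± 0.057, SE, adjusted p = 2.55e-11). Uqcr11 went from 71.6 ± 0.736 to 149.9 ± 1.11 CPM and Uqcr10 from 53.4 ± 1.80 to 100.3 ± 2.25 CPM (SD, n = 4). Uqcrc2 stood at 191, 192, 201 and 196 CPM in WT layer 6 and at 176, 180.1, 173 and 183 CPM in WT layer 5, and those groups did not overlap (log2 fold change -0.10 ± 0.027, SE, adjusted p = 0.00331). With upper quartile scaling that call was lost (log2 fold change -0.0078, adjusted p = 0.791).

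**Figure D4:**
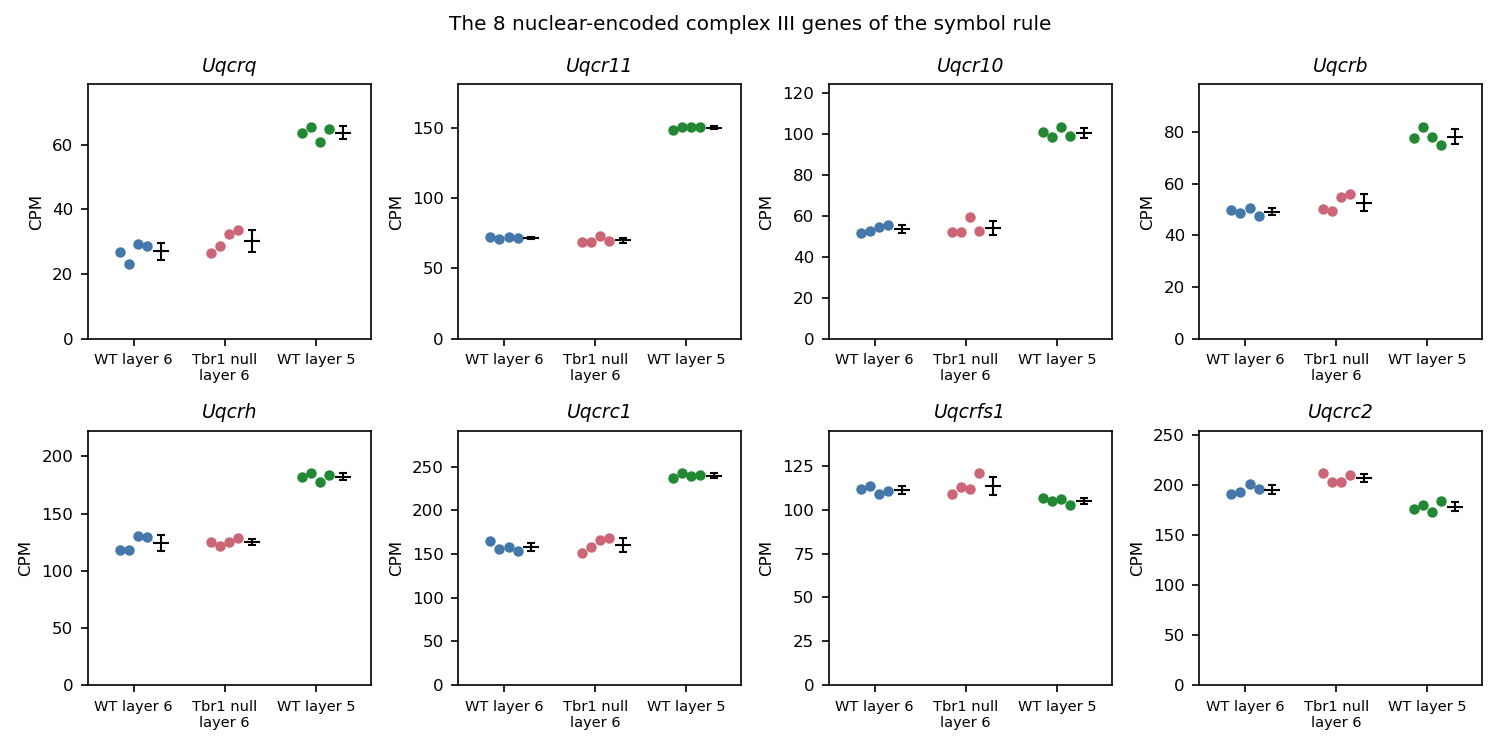
CPM (y axis, from 0) of the 8 complex III genes in the 12 libraries by group (x axis), with the mean and SD (n = 4). Uqcrq, Uqcr11, Uqcr10, Uqcrb, Uqcrh and Uqcrc1 are higher in all 4 WT layer 5 libraries than in any layer 6 library, whereas Uqcrfs1 and Uqcrc2 are at or below the layer 6 levels.

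Complex IV had the highest median of the complexes, a log2 fold change of 0.81, and all 17 tested members were higher in WT layer 5, or 16 of 16 with a median of 0.79 without Cox6a2. Cox6c stood at 83.6, 86.9, 86.6 and 82.3 CPM in WT layer 6 and at 211, 214, 209 and 213 CPM in WT layer 5, a log2 fold change of 1.35 ± 0.027 (SE, adjusted p = 3.92e-15). Cox8a, the widespread form of a small subunit, went from 134 ± 6.47 to 318 ± 5.21 CPM (SD, n = 4), and Cox4i1, the main form of the subunit that binds ATP as an inhibitor, from 269.9 ± 12.7 to 537 ± 6.84 CPM. Cox6a1 and Cox6b1 had log2 fold changes of 0.98 and 0.92, Cox7a2 of 0.66, Cox7b of 0.62 and Ndufa4 of 0.76. Cox7a2l, a factor that ties complexes III and IV into supercomplexes, went from 151 ± 4.32 to 276 ± 4.98 CPM (log2 fold change 0.90 ± 0.026, SE). Cox5a, chosen after its values were seen, had the lowest change of the class at 0.13, with overlapping groups.

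The isoforms known from particular tissues were counted at low levels. Cox6a2 gave 4, 2, 1 and 1 counts in WT layer 6, 1 count in each null library and 110, 76, 62 and 59 counts in WT layer 5. Summed over libraries, 307 counts against 8 gave a ratio of 52.1 with a 95% counting interval of 26.1 to 122, which covers counting error only and not the spread between libraries. The filter set the direction of Cox6a2, so its ratio is a description and no test. Cox4i2, a form induced by low oxygen, went from 1.26 ± 0.299 to 2.34 ± 0.181 CPM (SD, n = 4), with a log2 fold change of 0.90 ± 0.18 (SE). Ndufa4l2 went from 3.37 ± 0.284 to 4.68 ± 0.204 CPM. Cox6b2, known from testis, went from 0.792 ± 0.164 to 1.20 ± 0.0838 CPM (adjusted p = 0.0127), and missed the threshold with pairs summed (adjusted p = 0.0977), in limma with the pair as a random effect (adjusted p = 0.0541), and with batch B or C alone (adjusted p = 0.0714 and 0.0753). Cox7a1 stood at 0.308 to 0.588 CPM in WT layer 6 and 0.578 to 1.09 CPM in WT layer 5, and its adjusted p of 0.0284 rose to 0.0773 without WT layer 5 library 1, 0.11 without WT layer 5 library 3 and 0.0841 without WT layer 6 library 3. Cox7b2 was at or under 0.416 CPM in every library, Cox8b was counted in 1 of 12 libraries, and Cox8c in 0 of 12.

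Of 15 complex V genes, 14 were higher in WT layer 5 and 1, Atp5f1, was not called. Atp5b, the catalytic beta subunit, stood at 1038, 1001, 1038 and 1037 CPM in WT layer 6 and at 1292, 1354, 1296 and 1322 CPM in WT layer 5, a log2 fold change of 0.38 ± 0.022 (SE). By role, the median log2 fold change was 0.38 over the 5 genes of the F1 head and central stalk, 0.31 over 4 of the peripheral stalk and 0.78 over 3 small membrane subunits. Atp5o, the peripheral stalk protein that confers oligomycin sensitivity, went from 187 ± 5.04 to 316 ± 1.99 CPM (SD, n = 4), and Atp5j2, a membrane subunit, from 87.3 ± 0.945 to 148 ± 3.01 CPM.

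The c subunit of the rotor ring is made from 3 genes that encode the same mature protein, and these did not change to the same degree. Atp5g1 stood at 102, 94.2, 92.7 and 93.4 CPM in WT layer 6 and at 188, 193, 194 and 197 CPM in WT layer 5, a log2 fold change of 1.04 ± 0.033 (SE). Atp5g2 had a log2 fold change of 0.55 ± 0.030 and Atp5g3 of 0.28 ± 0.035 (SE). In the null the 3 had log2 fold changes of -0.0020, 0.029 and 0.12, none called. Atp5sl, which encodes no synthase subunit, was lower in WT layer 5, from 20.3 ± 1.09 to 13.4 ± 0.934 CPM (log2 fold change -0.57 ± 0.065, SE), and Atp5s, chosen after its values were seen, was higher, from 4.45 to 5.82 CPM.

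The third comparison set Tbr1 null layer 6 against WT layer 5, and shares its libraries with the others. Of 89 members tested, 6 were higher and 72 lower in the null, where 42.4% and 41.8% of all 15013 genes tested were called higher and lower. The median log2 fold change was -0.54, against -0.0035 over all genes. Complex IV had 14 of 17 members lower (median -0.93), or 13 of 16 (median -0.86) without Cox6a2, which again passed the filter through WT layer 5 alone, complex I 32 of 36 subunits lower and 1 higher (median -0.57), complex III 6 of 8 lower and 1 higher, complex V 14 of 15 lower and complex II 4 of 4 lower. Of the 7 complex I assembly factors, 3 were higher and 1 lower in the null. Ndufs1, which stood at 121 ± 4.36 CPM (SD, n = 4) in the null and 122 ± 5.80 CPM in WT layer 5, was not called here.

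Genes around the respiratory chain differed by list between WT layer 5 and WT layer 6, where 42.2% of all genes tested were called higher and 43.4% lower. Of 9 chain genes that the symbol rule leaves out, 9 were higher (median log2 fold change 0.48), among them Cycs, cytochrome c, from 52.0 ± 1.96 to 81.6 ± 2.76 CPM (SD, n = 4), and Cyc1, cytochrome c1 of complex III, from 84.6 ± 0.949 to 116 ± 1.77 CPM. Of 31 tested assembly factors of complexes II to V, 5 were higher and 22 lower (median -0.24), with Coa5 higher (log2 fold change 0.71) and Tmem70, needed to assemble the ATP synthase, lower (log2 fold change -1.01). Of 77 mitochondrial ribosomal proteins, 23 were higher and 37 lower (median -0.086), with Mrpl33 at 1.18 and Mrps22 at -0.92. Of 81 cytosolic ribosomal proteins, 75 were higher and 4 lower (median 0.59), beside the members' median of 0.55.

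The same all-gene shares between layers, 42.2% higher and 43.4% lower, stand beside the next lists. Of 21 genes of the citric acid cycle and pyruvate dehydrogenase, 13 were higher and 3 lower (median 0.21), with Pcx, pyruvate carboxylase, at 1.88. Glycolysis had 13 of 17 higher and 3 lower (median 0.53), with Aldoa at 1.12 and Pfkp at 1.75, and Aldoc at 2.58, which is also 1 of the 9 astrocyte markers. Mitochondrial import and cristae had 11 of 21 higher and 7 lower (median 0.11), and defence against reactive oxygen had 11 of 13 higher and 2 lower (median 0.60). In the null against WT layer 6, where 7.31% of all genes were called higher and 6.86% lower, the calls in these lists were 0 of 77 mitochondrial ribosomal proteins, 2 of 31 assembly factors lower, 3 of 21 citric acid cycle genes higher (Cs, Mdh2 and Pcx), 3 of 17 glycolysis genes higher (Aldoc, Ldha and Ldhb) and 1 of 9 other chain genes higher (Cycs, log2 fold change 0.14, adjusted p = 0.0349). With the pairs of libraries summed, the assembly factors called lower and the citric acid cycle and glycolysis genes called higher each numbered 0. Leaving out 1 library at a time gave 0 to 1 assembly factors lower and 2 to 4 glycolysis genes higher, and 1 citric acid cycle gene higher without null library 4 or WT layer 6 library 1, 2 or 4.

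**Figure D5:**
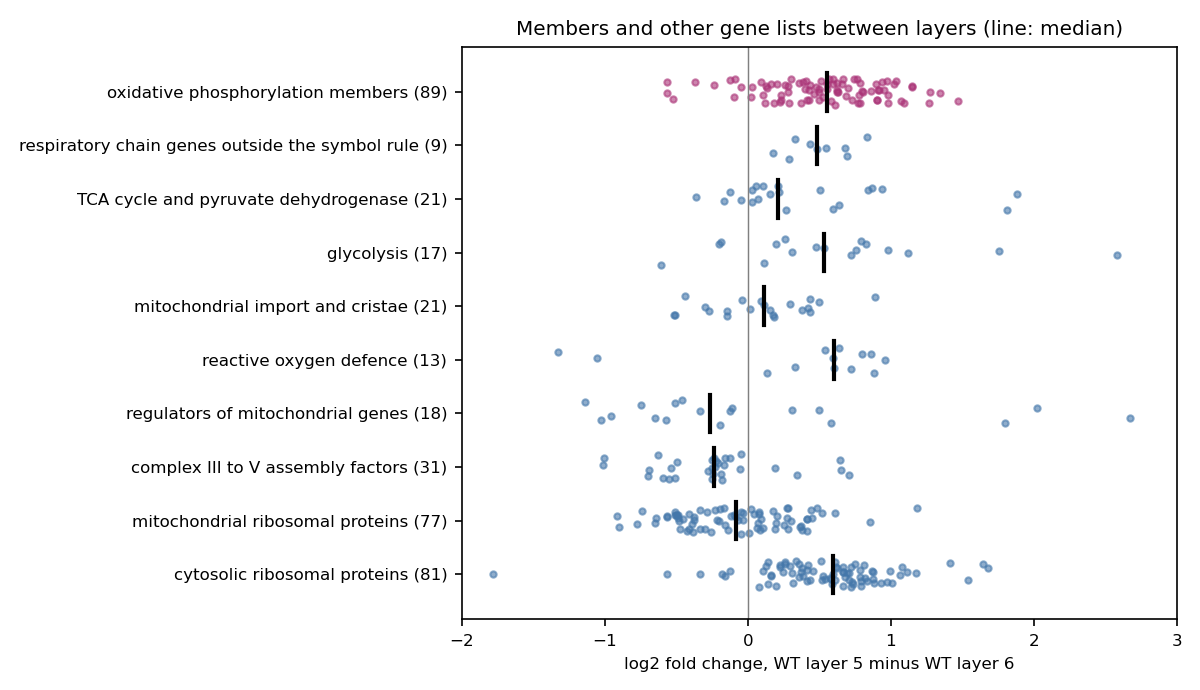
Log2 fold change between WT layer 5 and WT layer 6 (x axis) of each tested gene in the members and in 9 other lists (rows, with the number tested). Points are genes and the line is the median. Cox6a2 lies beyond the axis but counts in the median. The medians of the members (0.55) and of cytosolic ribosomal proteins (0.59) lie right of 0, and those of the regulators, the assembly factors and the mitochondrial ribosomal proteins left of it.

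The known regulators of these genes went both ways, as did all genes tested, of which 42.2% were called higher and 43.4% lower in WT layer 5. Of 18 regulators, 6 were higher and 10 lower there, with a median log2 fold change of -0.26. Ppargc1a, a coactivator that drives mitochondrial genes, stood at 9.19, 8.22, 8.87 and 9.57 CPM in WT layer 6, at 10.4, 11.6, 8.41 and 8.57 CPM in the null and at 31.9, 29.9, 32.4 and 28.1 CPM in WT layer 5. The layer 6 groups overlapped, and every layer 5 library stood above both (log2 fold change 1.80 ± 0.064, SE, over WT layer 6). Esrra, a nuclear receptor that partners it, was also higher (log2 fold change 0.31). Nrf1, nuclear respiratory factor 1, went from 47.9 ± 0.984 to 34.1 ± 1.62 CPM (log2 fold change -0.46), Tfam, the mitochondrial DNA packaging factor, from 51.4 ± 0.852 to 35.4 ± 0.590 CPM (-0.51), and Yy1, a zinc finger factor, from 72.6 ± 5.33 to 42.4 ± 2.28 CPM (-0.75). In the null, 7.31% of all genes tested were called higher than in WT layer 6. Tfam (log2 fold change 0.13, adjusted p = 0.0446) and Hif1a, the hypoxia factor (log2 fold change 0.15, adjusted p = 0.00596), were the 2 regulators called there, both higher. That count was 0 with pairs summed and with WT layer 6 libraries 3 and 4 alone, 1 with upper quartile scaling, in limma with the pair as a random effect and on leaving out any 1 library other than null library 4.

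Promoters of the members were read from RefSeq (GRCm38.p6), 300 bases each, from 250 before to 50 after the annotated start, and 76 of 92 members had an entry. A motif of NRF1, GCGC, any base and then TGCGC, was found on either strand in 19 of 76, or 25%, in 7.23% of the 16775 genes of the count table with an entry, and in 5.19% of all 27025 genes of the promoter set. Shares below are given for members, count table genes and the whole promoter set in that order. The stricter form with A as that base, whose matches the first includes, was in 9.21%, 1.47% and 1.07%. A YY1 motif was in 7.89%, 1.42% and 0.995%, CCGGAAGT, the ETS motif, in 6.58%, 5.69% and 4.31%, and TCAAGGTCA, the motif of estrogen-related receptors, in 2.63%, 0.382% and 0.466%. AGGTGTGA, a T-box motif of the kind Tbr1's family binds, was found in 0 of 76 members, 1.37% and 1.48%. The median log2 fold change between layers was 0.52 for members with the NRF1 motif and 0.57 for those without. A match is a description of these letters and shows no binding.

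Windows of 250 bases from 220 before to 30 after the start are shown for 4 members that carry the NRF1 motif and differ in how they changed between layers: Cox6a1 (log2 fold change 0.98), Atp5o (0.79), Sdhd (0.51) and Ndufaf4 (-0.23). Capitals mark each match, on either strand. Cox6a1 lies at chr5:115348929-115349178 on the minus strand, Atp5o at chr16:91931601-91931850 on the minus strand, Sdhd at chr9:50603820-50604069 on the minus strand and Ndufaf4 at chr4:24897863-24898112 on the plus strand, all in GRCm38.p6.
Cox6a1: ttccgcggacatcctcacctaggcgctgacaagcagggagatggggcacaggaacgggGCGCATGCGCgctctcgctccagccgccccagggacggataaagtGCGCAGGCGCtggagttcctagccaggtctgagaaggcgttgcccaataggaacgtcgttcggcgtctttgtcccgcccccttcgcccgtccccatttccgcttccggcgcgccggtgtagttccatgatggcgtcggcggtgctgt
Atp5o: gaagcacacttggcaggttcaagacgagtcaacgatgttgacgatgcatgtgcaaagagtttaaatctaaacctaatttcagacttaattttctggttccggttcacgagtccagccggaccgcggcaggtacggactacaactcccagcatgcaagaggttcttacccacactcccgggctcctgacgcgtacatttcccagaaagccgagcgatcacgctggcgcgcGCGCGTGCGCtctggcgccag
Sdhd: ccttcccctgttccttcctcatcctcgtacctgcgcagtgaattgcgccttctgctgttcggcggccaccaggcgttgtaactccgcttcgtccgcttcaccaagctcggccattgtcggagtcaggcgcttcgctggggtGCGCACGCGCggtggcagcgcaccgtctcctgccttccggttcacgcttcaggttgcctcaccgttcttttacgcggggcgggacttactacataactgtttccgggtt
Ndufaf4: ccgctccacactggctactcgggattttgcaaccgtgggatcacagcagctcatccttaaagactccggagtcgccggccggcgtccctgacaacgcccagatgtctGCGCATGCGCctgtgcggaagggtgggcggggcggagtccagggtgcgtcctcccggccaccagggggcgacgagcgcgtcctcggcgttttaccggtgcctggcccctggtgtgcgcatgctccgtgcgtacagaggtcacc
Cox6a1 has a match that begins at position -162 and another at -117 relative to the start, Ndufaf4 1 at -113, Sdhd 1 at -79 and Atp5o 1 at base 10 of the transcript. The Cox6a1 and Ndufaf4 matches at -162 and -113 are the strict form. Of the 7 members with that form, only Ndufaf4 was called lower in WT layer 5, Ndufaf5 was not called and the others were higher. The median log2 fold change between layers was 0.55 for members with the strict form and 0.55 for those without.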

How the data were processed

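Whole-number gene counts deposited by the authors were used for 12 RNA libraries. Per the labels' protocols, the libraries were stranded total RNA after ribosomal RNA removal. The submitters' processing notes name STAR 2.5.2b, HTSeq and bedtools with mm9 as the build. The sources used here do not state the annotation or strand setting. Another deposited table gives 14567 genes a whole-number score, with a median of 23 in each library. It served only to check signs, on log2(score + 1), which were the same for 2 of 2, 82 of 83 and 77 of 78 called members in the 3 comparisons. The 6 ChIP-seq samples were not used here.

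Each pair of groups was fitted on the whole table with edgeR 4.0.16 in R 4.3.3 (TMM, filterByExpr by group, quasi-likelihood F-test), and a gene was called where its p, adjusted by Benjamini-Hochberg over all genes tested, was below 0.05. The standard error is the log2 fold change divided by the root of F. DESeq2 1.42.0, limma 3.58.1 (voom), other scalings, no filter, all groups in 1 fit, a replicate block, summed library pairs, single batches and each library left out were tried. A fit without Rn45s and ribosomal protein genes was added after seeing the data. The script was tested on simulated counts. Layer 6 pairs follow the labels' sample codes, and layer 5 pairs (1 with 3, 2 with 4) only the likeness of their counts. Precision rests on 27465597 to 54899002 counts a library.

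Members, lists and tests were chosen with earlier results of these data known. Genes were named by rule: complex II, isoform sets, the 3 highest and 3 lowest called members of each class with a mean of at least 10 CPM in each comparison, the member with the highest CPM of each class, and for other lists up to 3 genes by adjusted p and regulators of at least 10 CPM. Other named genes are marked or stand as examples of a count. Some genes that the rule would name are not reported here.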

Additional observations from a re-analysis of the deposited data

Results flagged for a closer look

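In 8 of 138 groups of 4 libraries tested (5.8%), 1 library stood far from the other 3 by Dixon's test at the 95% level, where chance gives about 5%. Atp5b was at 1001 CPM in WT layer 6 library 2, against 1037 to 1038 CPM in the others. Atp5g1 was at 102 CPM in WT layer 6 library 1 (others 92.7 to 94.2 CPM) and at 90.4 CPM in null library 1 (others 96.8 to 97.7 CPM). Ndufa1 was at 25.1 CPM in WT layer 6 library 1 (others 28.6 to 29.1 CPM) and at 62.9 CPM in WT layer 5 library 2 (others 59.3 to 59.8 CPM). Cox7b was at 110.1 CPM in null library 1 (others 98.6 to 100.1 CPM), and Uqcr10 at 59.2 CPM in null library 3 (others 52.0 to 52.7 CPM). The summed level of Atp5s and Atp5sl was 17.2 CPM in WT layer 5 library 2 (others 19.8 to 20.2 CPM).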

How the results depend on the processing

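No called member named by the rule changed direction under any setting run, whereas some uncalled fold changes near 0 and medians over all genes did. For members named outside the rule, direction was not followed through the settings. The all-gene median of -0.010 between layers was 0.082 with upper quartile scaling, and that of -0.0035 for the null against layer 5 was 0.032 without the filter. Between null and WT layer 6, the 2 members called higher and 0 lower became 5 and 2 with DESeq2 and again with all 3 groups in 1 fit. The count of members higher was 0 with pairs summed, 1 in limma with the pair as a random effect and 1 with WT layer 6 libraries 3 and 4 alone. Leaving out each library gave 2 to 5 higher and 0 to 1 lower. The share of all genes called was not counted under these settings. With a replicate block the counts were 2 and 1, but same-numbered libraries correlated at -0.142 to -0.0717 between these groups, so the numbers do not pair them, and the block kept 83 of 84 calls between layers. For WT layer 5 against WT layer 6 the members' median log2 fold change of 0.55 was 0.65 with upper quartile scaling, 0.51 without the filter and 0.59 with batch B alone, and against the null -0.54 was -0.63 and -0.51 with the first pair of settings. Leaving out each library gave 0.53 to 0.56 between layers -0.56 to -0.50 for the null against layer 5 and 0.0047 to 0.037 for the null against WT layer 6. Without Rn45s and ribosomal protein genes, 84 of 84 calls between layers were kept. The causes of these shifts were not tested, apart from the fewer samples or genes that a setting itself fits. Depth limits the tissue isoforms of complex IV, several of which were counted a few times or not at all.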
